A study of Mus musculus with 15 samples.

Results

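Cell cycle and DNA replication genes were followed in 105K tumors carrying a non-targeting shRNA or an shRNA against B7-H3 (Cd276). The set held 46 genes chosen by symbol, and all 46 were found among the 24891 genes of the deposited expression table. By role they were divided into 9 G1/S control genes, 10 S phase genes, 22 mitosis genes and 5 CDK inhibitor genes. 105K cells lack Tsc2 and were derived from a kidney tumor of a mouse heterozygous for Tsc2, and every group analysed shared that loss. The cells stably expressed a control hairpin, sh-NC, or 1 of 2 hairpins against B7-H3, sh-B7-H3 (1) or its counterpart sh-B7-H3 (2). They were grown under the skin of the flanks of male C57BL/6J mice that were 6 weeks old at inoculation. Whole tumors ("bulk") were sequenced for the sh-NC and the sh-B7-H3 (1) group, and tumor cells isolated with a magnetic kit ("sorted") for all 3 hairpins, with 3 libraries in each of the 5 groups. Bulk libraries hold host cells as well as tumor cells. All groups derive from 1 cell line, so they model that line and not Tsc2-deficient tumors at large.

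A cell commits to division in G1, when D-type cyclins with CDK4 or CDK6 and cyclin E with CDK2 phosphorylate the retinoblastoma protein and free E2F factors. E2F factors turn on the replication genes of S phase, and later B-MYB, bound to the MuvB core complex, and FOXM1 turn on the genes of mitosis. The INK4 inhibitors (CDKN2A, CDKN2B, CDKN2C) bind CDK4 and CDK6, and the CIP/KIP inhibitors (CDKN1A, CDKN1B) bind cyclin-CDK complexes.

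Levels are given as scaled FPKM, the deposited FPKM (fragments per length of transcript and sequencing depth) divided by a factor per library, and values of 3 libraries are listed in the order of replicates 1, 2 and 3. Fold changes are differences of log2(scaled FPKM + 1) with their SE, from limma, and a gene is said to have risen or fallen where its Benjamini-Hochberg adjusted p over all genes tested was below 0.05. On this scale the change of a low gene is understated. A gene was tested in a comparison where at least 3 of its libraries reached 1 scaled FPKM.

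The target of the shRNA, CD276, was at 34, 20.0 and 17.3 in sorted sh-NC libraries, at 7.29, 14 and 11.5 in sorted sh-B7-H3 (1) and at 23.3, 25.4 and 25.7 in sorted sh-B7-H3 (2). It was at 20.8, 23.2 and 23.5 in bulk sh-NC and at 22.3, 17.8 and 24.4 in bulk sh-B7-H3 (1). CD276 mRNA of the sorted sh-B7-H3 (1) libraries was below every sorted sh-NC library but missed the threshold (log2 fold change -1.04 ± 0.29, adjusted p = 0.0547). CD276 of the libraries labelled sh-B7-H3 (2) and of the bulk libraries labelled sh-B7-H3 (1) lay at the level of their controls (log2 fold change 0.12 ± 0.23, adjusted p = 0.775 and log2 fold change -0.07 ± 0.13, adjusted p = 0.709). Directions given for those groups therefore rest on the labels. TSC2 was listed at 1.66 to 4.66 scaled FPKM over the 15 libraries. All 10 markers of renal tubule epithelium (among them CDH16, PAX8 and KRT8) were above 0 in the sorted libraries, and their summed level differed between the sorted groups without overlap. It was 919 to 1128 with sh-NC, 1536 to 1727 with sh-B7-H3 (1) and 1757 to 1896 with sh-B7-H3 (2), and in bulk tumors 822 to 927 with sh-NC and 1082 to 1439 with sh-B7-H3 (1). Its part in the differences below was not tested.

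The sorted sh-B7-H3 (2) replicate 1 library stood apart from the other 8 sorted libraries. The summed level of 10 leukocyte markers was 614 there, against 32.5 to 95.3 in the other sorted libraries and 471 to 874 in the bulk libraries, and 9 of the 10 markers were higher there than in every other sorted library. The summed level of 10 endothelial markers was 27.8 there and 0.354 to 0.955 in the other sorted libraries. Calls on members with sh-B7-H3 (2), and the counts and medians over members, are given with and without that library. In the bulk tumors the summed level of 8 T cell markers was 2.6 to 2.98 with sh-NC and 6.62 to 21.8 with sh-B7-H3 (1). The summed level of 10 fibroblast markers also differed without overlap, at 108 to 192 in bulk sh-NC against 303 to 704 in bulk sh-B7-H3 (1), and at 48.5 to 112 in sorted sh-NC against 137 to 176 in sorted sh-B7-H3 (2), the groups in which CDKN2A and CDKN2B were higher. In sorted sh-B7-H3 (1) it was 66.5 to 107. Within sorted sh-B7-H3 (2), replicate 1 had the highest fibroblast sum, 176. Its CDKN2A and CDKN2B, at 2.53 and 1.94, were the lowest of that group. CDKN2A was at 1.82 to 2.52 in bulk sh-B7-H3 (1), where the fibroblast sums were highest, and at 2.53 to 10.8 in sorted sh-B7-H3 (2). The part of these cells in the differences was not tested. In bulk samples fewer cells of a type and less RNA per cell cannot be told apart.

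The promoters of these genes are shown first, because the factors that turn on S phase and mitosis genes bind there. The genes themselves were grouped by role and not by these sites. RefSeq promoters (GRCm38.p6, the sequence of mm10, from 250 bases before to 50 after the start site) were found for 36 of the 46 members, with 40 promoters in all. The letters of the cell cycle homology region, TTTGAA or TTCGAA on either strand, were in 12 of the 16 promoters of mitosis genes and in 1 of the 9 of S phase genes. Of all 32851 promoters, 19.2% held them. The letters of an E2F site, TTTGGCGC, TTTCCCGC, TTTCGCGC or TTTGCCGC on either strand, were in 5 of the 9 S phase promoters and in 1 of the 16 mitosis promoters, against 2.26% of all promoters. The CCAAT box, CCAAT on either strand, was in 13 of the 16 mitosis promoters and 6 of the 9 S phase promoters, against 37.4% of all. E2F letters such as TTTCGCGC can overlap another E2F match on the opposite strand, and these counts are a description with no test.

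**Figure D1:**
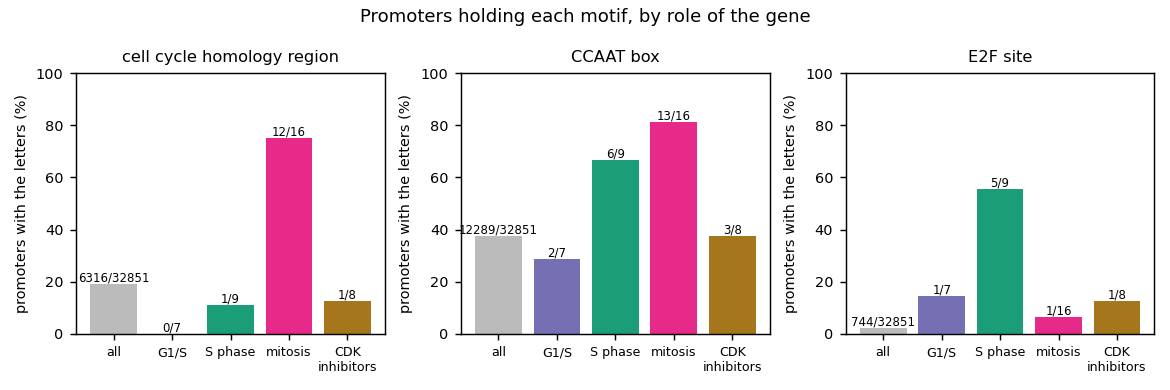
Share of promoters (y axis, percent) that hold the letters of the cell cycle homology region, the CCAAT box or an E2F site, for all RefSeq promoters and for members by role (x axis), with the number of promoters above each bar. The cell cycle homology region stands at 12 of 16 mitosis promoters and the E2F site at 5 of 9 S phase promoters.

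The promoters of 5 genes that the results below turn on are printed 5′ to 3′ in the direction of transcription, with the letters of these motifs in capitals. CCNB2 (chr9:70421505-70421804, minus strand) was the mitosis gene that fell with both shRNAs, MCM6 (chr1:128359656-128359955, minus strand) and CDT1 (chr8:122567765-122568064, plus strand) are S phase genes. CDKN2A and CDKN2B (both on the minus strand of chromosome 4) are the inhibitors that rose. CDKN2A has 2 promoters, an upstream one (chr4:89294570-89294869) and a downstream one (chr4:89282143-89282442), whose transcripts encode p19Arf and p16Ink4a respectively.
CCNB2: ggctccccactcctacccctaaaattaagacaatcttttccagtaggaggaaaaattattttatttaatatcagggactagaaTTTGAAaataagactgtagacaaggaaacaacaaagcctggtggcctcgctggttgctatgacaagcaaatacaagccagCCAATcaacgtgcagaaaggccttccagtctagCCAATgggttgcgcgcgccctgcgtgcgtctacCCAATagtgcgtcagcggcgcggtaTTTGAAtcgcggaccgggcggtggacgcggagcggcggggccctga
MCM6: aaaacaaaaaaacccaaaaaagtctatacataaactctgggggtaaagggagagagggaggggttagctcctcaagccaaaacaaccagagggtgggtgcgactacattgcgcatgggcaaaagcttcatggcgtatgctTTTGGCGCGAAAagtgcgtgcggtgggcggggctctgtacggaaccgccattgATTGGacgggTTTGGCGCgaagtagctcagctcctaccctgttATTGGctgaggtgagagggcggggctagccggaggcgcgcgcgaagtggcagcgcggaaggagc
CDT1: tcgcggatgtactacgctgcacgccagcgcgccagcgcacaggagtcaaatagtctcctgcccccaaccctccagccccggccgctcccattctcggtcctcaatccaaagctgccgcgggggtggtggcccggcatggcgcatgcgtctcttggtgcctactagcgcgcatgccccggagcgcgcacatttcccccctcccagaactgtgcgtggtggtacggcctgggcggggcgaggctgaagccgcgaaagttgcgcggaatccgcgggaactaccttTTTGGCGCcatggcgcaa
CDKN2A, upstream: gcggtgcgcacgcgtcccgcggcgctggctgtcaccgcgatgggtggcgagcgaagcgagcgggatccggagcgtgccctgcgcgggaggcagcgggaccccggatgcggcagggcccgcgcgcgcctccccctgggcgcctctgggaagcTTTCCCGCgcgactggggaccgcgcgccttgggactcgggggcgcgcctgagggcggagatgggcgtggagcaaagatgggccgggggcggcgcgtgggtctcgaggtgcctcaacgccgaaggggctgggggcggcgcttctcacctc
CDKN2A, downstream: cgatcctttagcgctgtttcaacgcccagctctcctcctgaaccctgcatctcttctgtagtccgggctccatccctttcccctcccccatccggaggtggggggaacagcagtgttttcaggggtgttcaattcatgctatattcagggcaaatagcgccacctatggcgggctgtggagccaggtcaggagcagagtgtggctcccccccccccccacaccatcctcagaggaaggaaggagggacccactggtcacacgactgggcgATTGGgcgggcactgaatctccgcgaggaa
CDKN2B (chr4:89310983-89311282): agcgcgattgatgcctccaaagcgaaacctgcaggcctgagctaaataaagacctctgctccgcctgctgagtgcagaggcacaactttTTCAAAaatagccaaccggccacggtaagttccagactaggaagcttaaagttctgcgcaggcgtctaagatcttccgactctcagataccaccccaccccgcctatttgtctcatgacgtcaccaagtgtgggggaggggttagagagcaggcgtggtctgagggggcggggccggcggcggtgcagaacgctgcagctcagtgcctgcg
The CCNB2 promoter held 2 matches to the cell cycle homology region and 3 CCAAT boxes, the MCM6 promoter 3 E2F matches (2 of them overlapping) and 2 CCAAT boxes, and the CDT1 promoter 1 E2F match. The upstream CDKN2A promoter held 1 E2F match, the downstream one 1 CCAAT box, and the CDKN2B promoter 1 match to the cell cycle homology region.

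With sh-B7-H3 (1) in sorted cells, 1 of the 45 members tested, CCNB2, passed the threshold, against 13.4% of all genes tested, and 9 members had an unadjusted p under 0.05. With sh-B7-H3 (2) in sorted cells, 8 of 46 members passed, 6 higher and 2 lower, against 19.1% of all genes. In bulk tumors with sh-B7-H3 (1), 6 of 46 members passed, 2 higher and 4 lower, against 21.4% of all genes. The share of members was 2.22%, 17.4% and 13.0% in these 3 comparisons, and with sh-B7-H3 (2) it was near that of all genes. The median log2 fold change over the members tested was -0.09, 0.015 and -0.08 in this order, beside 0.002, 0.01 and 0.023 over all genes. With FPKM as deposited, which moved the median of all genes to 0.17, 0.21 and 0.05, 0 members passed in the first comparison, 8 higher and 0 lower in the second, and 1 higher and 1 lower in the third, against 12.5%, 17.0% and 8.24% of all genes. Without sorted sh-B7-H3 (2) replicate 1, 5 members passed in the second comparison, 3 higher and 2 lower, and the median over the members was -0.04. Libraries that did not overlap between groups were found for 18, 14 and 14 members, against 31.1%, 37.1% and 44.5% of all genes tested. The 2 comparisons in sorted cells share the sorted sh-NC libraries.

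**Figure D2:**
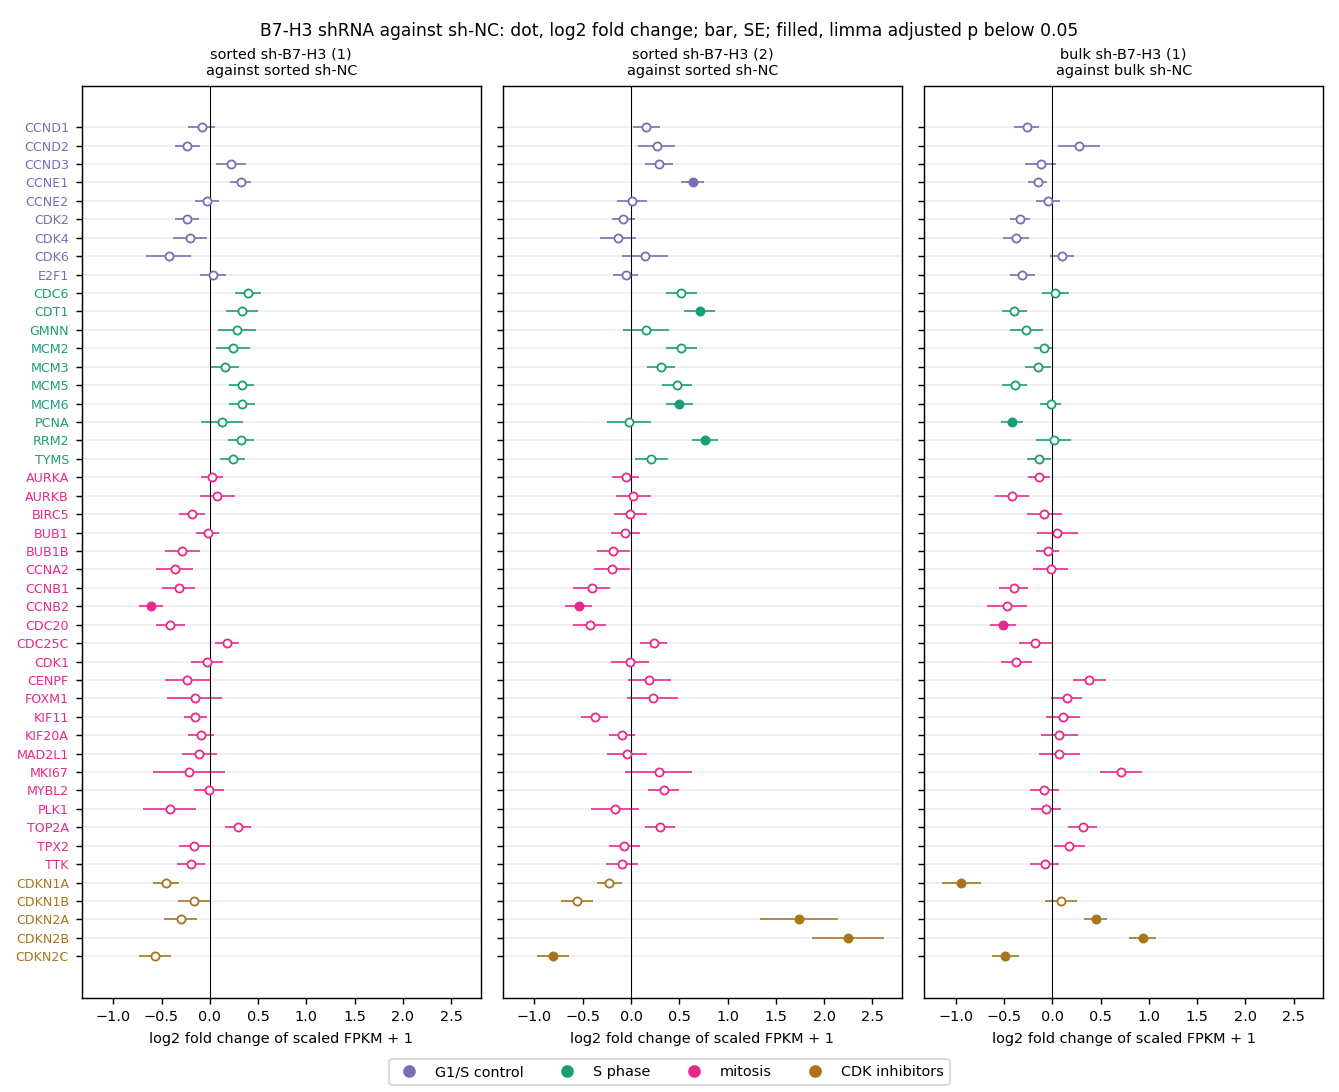
Log2 fold change of scaled FPKM + 1 (x axis, dots) with its SE (bars) for each member (y axis, coloured by role) in the 3 comparisons of a B7-H3 shRNA with sh-NC. Filled dots had a limma adjusted p below 0.05. Filled dots are 1, 8 and 6 in the panels from left to right, and CDKN2B has no dot in the left panel because it was not tested there.

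The CDK inhibitors moved in different directions, and with sh-B7-H3 (2) and in bulk tumors they held the largest differences among the members. CDKN2B (p15Ink4b, which blocks CDK4 and CDK6) was at 0.0212, 0.176 and 0.415 in sorted sh-NC, 0.0609, 0.143 and 0.0207 in sorted sh-B7-H3 (1) and 1.94, 6.72 and 7.03 in the sorted libraries labelled sh-B7-H3 (2). In bulk tumors it was at 0.388, 0.546 and 0.551 with sh-NC and 1.8, 2.34 and 1.5 with sh-B7-H3 (1). It was near 0 in the sorted sh-NC and sh-B7-H3 (1) libraries, and all 3 sh-B7-H3 (2) libraries and all 3 bulk sh-B7-H3 (1) libraries were above their controls. CDKN2B rose with sh-B7-H3 (2) (log2 fold change 2.25 ± 0.37, adjusted p = 0.00464) and in bulk tumors with sh-B7-H3 (1) (log2 fold change 0.94 ± 0.14, adjusted p = 0.00719). Since it reached 1 scaled FPKM in the shRNA libraries alone, it entered these tests only through the group where it was high. With no filter on low values its adjusted p were 0.0266 and 0.016. Without sorted sh-B7-H3 (2) replicate 1 it had too few libraries at 1 scaled FPKM to be tested, and that leukocyte-rich library had the lowest CDKN2B of its group.

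CDKN2A, whose transcripts encode the CDK inhibitor p16Ink4a and the p53 activator p19Arf, was at 0.821, 1.3 and 1.4 in sorted sh-NC, 0.450, 1.01 and 0.838 in sorted sh-B7-H3 (1) and 2.53, 7.98 and 10.8 in sorted sh-B7-H3 (2). The bulk levels were 1.32, 1.32 and 1.48 with sh-NC and 2.52, 2.42 and 1.82 with sh-B7-H3 (1). The pattern over the groups was that of CDKN2B, with the leukocyte-rich library again lowest of the sh-B7-H3 (2) libraries. CDKN2A rose with sh-B7-H3 (2) (log2 fold change 1.74 ± 0.41, adjusted p = 0.021), and without the leukocyte-rich library its log2 fold change was 2.25 (adjusted p = 0.0007). The call was lost without sorted sh-B7-H3 (2) replicate 2 (adjusted p = 0.0725), replicate 3 (0.0685) or sorted sh-NC replicate 2 (0.0681). With no filter on low values the call was lost too. Too few sorted sh-NC libraries reached 1 scaled FPKM for the filter. CDKN2A therefore entered this test through the sh-B7-H3 (2) libraries, where it was high. In bulk tumors it rose by less (log2 fold change 0.45 ± 0.12, adjusted p = 0.0436), and it passed there in 3 of 13 alternatives (adjusted p 0.0259 to 0.386). That call was lost without bulk sh-NC replicate 1, 2 or 3 or bulk sh-B7-H3 (1) replicate 1 or 2. The table has 1 row for CDKN2A, so its 2 transcripts could not be told apart.

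CDKN2A and CDKN2B are neighbours on chromosome 4 (chr4:89274473-89294619 and chr4:89306289-89311032, with 11670 bases between them). Of the 43 genes of the table within 1 Mb of CDKN2A, 8 reached 1 scaled FPKM in any library. Values of the neighbours were looked at after those of CDKN2A and CDKN2B had been seen. MTAP, a methionine salvage enzyme at chr4:89137370-89181090, was at 251, 319 and 342 in sorted sh-NC, 277, 282 and 264 in sorted sh-B7-H3 (1) and 130.1, 136 and 130.2 in sorted sh-B7-H3 (2). It fell in the sorted libraries labelled sh-B7-H3 (2) (log2 fold change -1.19 ± 0.16, adjusted p = 0.00174), the group in which CDKN2A and CDKN2B rose, and it passed in all 13 alternatives to the main processing. In bulk tumors MTAP was at 208, 192 and 176 with sh-NC and 164, 176 and 192 with sh-B7-H3 (1), and the groups overlapped. Among the 5 other genes, the non-coding WINCR1 (log2 fold change -0.89 ± 0.24, adjusted p = 0.0359) and GM12602 (-0.79 ± 0.18, adjusted p = 0.0204) also fell with sh-B7-H3 (2), each in 6 of 13 alternatives. FOCAD, HACD4 and KLHL9 did not pass with sh-B7-H3 (2). In bulk tumors with sh-B7-H3 (1), WINCR1 fell (-1.21 ± 0.14, adjusted p = 0.00347), HACD4 rose (0.49 ± 0.14, adjusted p = 0.0469), and the other 4, MTAP among them, did not pass. With sh-B7-H3 (2) WINCR1 missed the threshold without sorted sh-B7-H3 (2) replicate 1, 2 or 3 or sorted sh-NC replicate 2 or 3. GM12602 missed it without sorted sh-B7-H3 (2) replicate 2 or 3 or sorted sh-NC replicate 2 or 3.

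CDKN2C (p18Ink4c, a further CDK4 and CDK6 inhibitor) was at 38.7, 46 and 58.8 in sorted sh-NC, 31.7, 30.4 and 32.7 in sorted sh-B7-H3 (1) and 28.2, 26.1 and 25.2 in sorted sh-B7-H3 (2). The bulk levels were 55.3, 47.5 and 49.5 with sh-NC and 30.9, 43.4 and 34.3 with sh-B7-H3 (1). Every shRNA library was below every control library of its material. CDKN2C fell with sh-B7-H3 (2) (log2 fold change -0.81 ± 0.17, adjusted p = 0.0124) and in bulk tumors (log2 fold change -0.49 ± 0.14, adjusted p = 0.0468), and with sh-B7-H3 (1) in sorted cells it missed the threshold (log2 fold change -0.56 ± 0.17, adjusted p = 0.0654). The sh-B7-H3 (2) difference was -0.85 without the leukocyte-rich library (adjusted p = 0.0362). It missed the threshold without sorted sh-B7-H3 (2) replicate 2 (0.0591), replicate 3 (0.0685) or sorted sh-NC replicate 2 (0.0501). It also missed with FPKM as deposited and with the replicate block, so that it passed in 8 of 13 alternatives (adjusted p up to 0.118). The bulk difference passed in 4 of 13 alternatives and missed the threshold without bulk sh-NC replicate 1, 2 or 3 or bulk sh-B7-H3 (1) replicate 1 or 3 (adjusted p 0.0986 to 0.169), and with FPKM as deposited (0.568).

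CDKN1A (p21, a p53 target that inhibits cyclin-CDK complexes) was at 70.5, 62.8 and 102 in bulk sh-NC and 33.7, 45.8 and 40.0 in bulk sh-B7-H3 (1). All 3 bulk sh-B7-H3 (1) libraries were below all 3 bulk sh-NC libraries, and CDKN1A fell (log2 fold change -0.94 ± 0.20, adjusted p = 0.0206). Without bulk sh-B7-H3 (1) replicate 1 the difference missed the threshold (adjusted p = 0.0936). In sorted cells it was at 66.7, 53.2 and 59.6 with sh-NC, 42.8, 41.2 and 45.6 with sh-B7-H3 (1) and 48.8, 54.3 and 49.5 with sh-B7-H3 (2), with no difference past the threshold (log2 fold change -0.46 ± 0.14, adjusted p = 0.0656 and log2 fold change -0.23 ± 0.13, adjusted p = 0.294). CDKN1B (p27, which inhibits cyclin E-CDK2) was at 24.5, 32.2 and 36.7 in sorted sh-NC, 29.6, 26.4 and 26 with sh-B7-H3 (1) and 21.9, 20.6 and 19.2 with sh-B7-H3 (2). All 3 sh-B7-H3 (2) libraries were below all sh-NC libraries, yet the difference missed the threshold (log2 fold change -0.56 ± 0.16, adjusted p = 0.0511). Without the leukocyte-rich library the sh-B7-H3 (2) differences were -0.20 for CDKN1A (adjusted p = 0.501) and -0.60 for CDKN1B (adjusted p = 0.1). In bulk tumors CDKN1B was at 25.3, 19.9 and 28.2 with sh-NC and 24.7, 22.3 and 31.3 with sh-B7-H3 (1), and the groups overlapped.

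**Figure D3:**
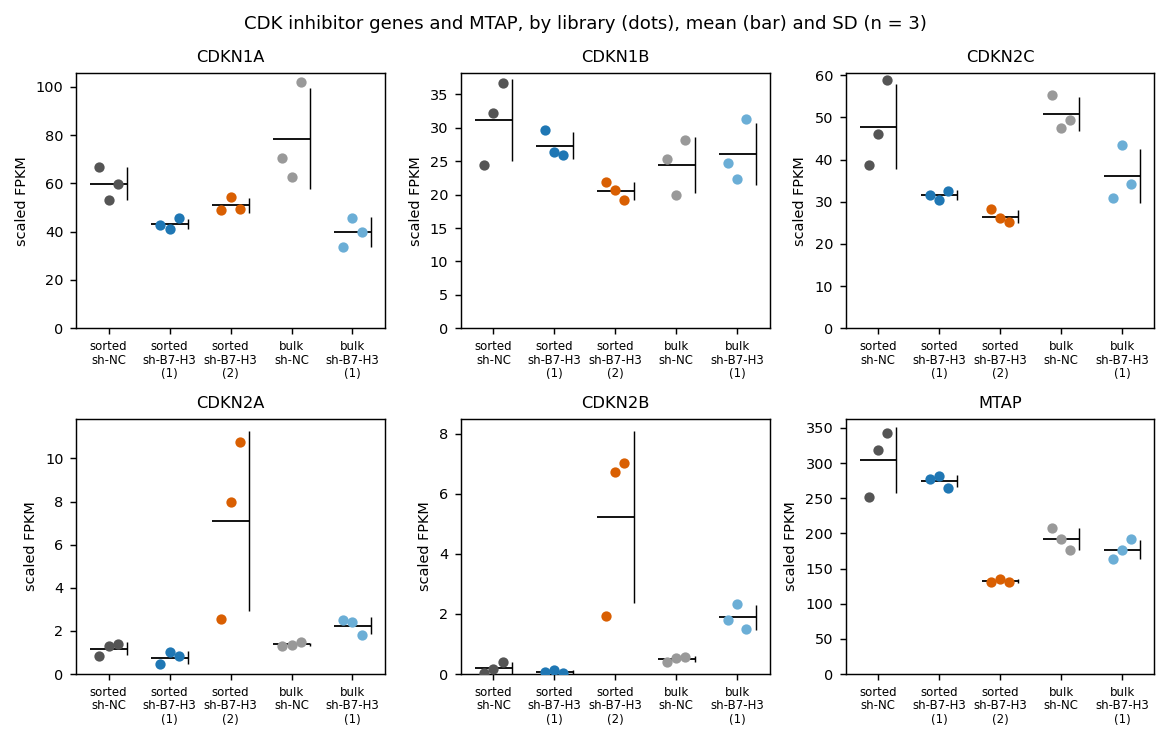
Scaled FPKM (y axis, linear, from 0) of the 5 CDK inhibitor genes and of MTAP in each of the 15 libraries (dots), by group (x axis), with the group mean (horizontal bar) and SD (vertical bar, n = 3). CDKN2A and CDKN2B are highest in sorted sh-B7-H3 (2), at 2.53 to 10.8 and 1.94 to 7.03, where MTAP is lowest at 130.1 to 136.

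Among the 9 G1/S control genes, 1 passed the threshold in any of the comparisons with sh-NC. That was with sh-B7-H3 (2), where it made up 11.1% of the G1/S genes, against 19.1% of all genes. CCNE1 (cyclin E1, the partner of CDK2) was at 2.65, 2.79 and 2.66 in sorted sh-NC, 3.59, 3.57 and 3.67 in sorted sh-B7-H3 (1) and 5.05, 4.23 and 5.01 in sorted sh-B7-H3 (2). The 3 sorted groups did not overlap, and CCNE1 rose with sh-B7-H3 (2) (log2 fold change 0.64 ± 0.12, adjusted p = 0.00849) but not past the threshold with sh-B7-H3 (1) (log2 fold change 0.32 ± 0.11, adjusted p = 0.105). Without the leukocyte-rich library its sh-B7-H3 (2) difference was 0.60 (adjusted p = 0.0335), and it missed the threshold without sorted sh-B7-H3 (2) replicate 3 (0.0624). Bulk levels were 4.69, 5.37 and 5.2 with sh-NC and 4.13, 4.47 and 4.84 with sh-B7-H3 (1).

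CCND1 (cyclin D1, the partner of CDK4 and CDK6) was one of the highest members, at 138, 120.2 and 110.1 in sorted sh-NC, 115, 112 and 119 in sorted sh-B7-H3 (1) and 145, 135 and 130.2 in sorted sh-B7-H3 (2). In bulk tumors it was at 168, 170.3 and 171 with sh-NC and 150.5, 159 and 116 with sh-B7-H3 (1), without overlap but short of the threshold (log2 fold change -0.27 ± 0.13, adjusted p = 0.176). E2F1, the factor that turns on S phase genes, was at 5.93, 5.13 and 4.58 in sorted sh-NC, 4.93, 5.11 and 5.98 with sh-B7-H3 (1) and 4.83, 5.19 and 4.83 with sh-B7-H3 (2), and the 3 groups overlapped. In bulk tumors E2F1 was at 8.86, 9.73 and 10.5 with sh-NC and 6.47, 8.94 and 7.52 with sh-B7-H3 (1). CDK4, the kinase that the INK4 proteins bind, was at 135 to 200.2 scaled FPKM in sorted sh-NC and 134 to 167 in sorted sh-B7-H3 (2), and CDK6, its relative, at 5.50 to 11.0 and 7.07 to 9.19. The other 4 G1/S genes (CCND2, CCND3, CCNE2 and CDK2) had log2 fold changes between -0.23 and 0.22 with sh-B7-H3 (1) in sorted cells, -0.08 and 0.29 with sh-B7-H3 (2), and -0.33 and 0.27 in bulk tumors.

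All 10 S phase genes had a log2 fold change above 0 with sh-B7-H3 (1) in sorted cells, with a median of 0.30, but none of them passed limma's threshold and 4 had an unadjusted p under 0.05. With sh-B7-H3 (2), 9 of 10 were above 0, the median was 0.49, and RRM2, CDT1 and MCM6 rose. In bulk tumors 8 of 10 were below 0, the median was -0.14, and PCNA fell. With FPKM as deposited and with quantile normalization the medians over the 10 genes kept these signs, at 0.48 and 0.25, 0.67 and 0.36, and -0.11 and -0.18. Without the leukocyte-rich library the sh-B7-H3 (2) median was 0.38, with 8 of 10 above 0 and 1 gene, RRM2, past the threshold.

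RRM2, the small subunit of ribonucleotide reductase, which makes the deoxynucleotides for replication, was at 41.2, 46 and 48.9 in sorted sh-NC, 63.1, 55.8 and 52.1 in sorted sh-B7-H3 (1) and 88.1, 71.1 and 75.2 in sorted sh-B7-H3 (2). The 3 sorted groups did not overlap. RRM2 rose with sh-B7-H3 (2) (log2 fold change 0.77 ± 0.14, adjusted p = 0.00673) and stayed past the threshold in all 13 alternatives, with 0.68 and adjusted p = 0.0302 without the leukocyte-rich library. With sh-B7-H3 (1) it missed the threshold (log2 fold change 0.32 ± 0.14, adjusted p = 0.193). Bulk levels were 43.5, 49 and 48 with sh-NC and 41.7, 39.9 and 63.4 with sh-B7-H3 (1), and the groups overlapped.

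CDT1, which loads the MCM helicase onto replication origins, was at 5.21, 3.43 and 3.75 in sorted sh-NC, 4.95, 4.95 and 6.36 in sorted sh-B7-H3 (1) and 8.17, 6.93 and 6.86 in sorted sh-B7-H3 (2). MCM6, a subunit of that helicase, was at 27.7, 21.6 and 22.1 in sorted sh-NC, 31.5, 28.9 and 29.7 with sh-B7-H3 (1) and 37.7, 32 and 32.2 with sh-B7-H3 (2). All sh-B7-H3 (2) libraries were above all sh-NC libraries for both genes, and both rose (log2 fold change 0.71 ± 0.16, adjusted p = 0.0195 and log2 fold change 0.50 ± 0.14, adjusted p = 0.0456). In neither gene did the call hold without the leukocyte-rich library, where CDT1 was 0.64 higher (adjusted p = 0.0691) and MCM6 0.43 higher (adjusted p = 0.149). CDT1 also missed the threshold without sorted sh-B7-H3 (2) replicate 2 (0.0659), replicate 3 (0.0686) or sorted sh-NC replicate 2 (0.0868). MCM6 missed it without sorted sh-B7-H3 (2) replicate 2 (0.128), replicate 3 (0.139), sorted sh-NC replicate 2 (0.181) or replicate 3 (0.097). The MCM6 call was also lost with no filter, a filter in every library and the replicate block, and it passed in 5 of 13 alternatives. In bulk tumors CDT1 was at 8.74, 11 and 9.47 with sh-NC and 6.69, 8.3 and 6.59 with sh-B7-H3 (1), and MCM6 at 31.3, 39.8 and 32.7 with sh-NC and 32.9, 34.9 and 34.1 with sh-B7-H3 (1).

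MCM2, another helicase subunit, was at 14.1, 9.91 and 9.61 in sorted sh-NC, 11.7, 12.8 and 15.2 in sorted sh-B7-H3 (1) and 16.7, 15.3 and 16.9 in sorted sh-B7-H3 (2). All sh-B7-H3 (2) libraries were above all sh-NC libraries, but the difference missed the threshold (log2 fold change 0.52 ± 0.16, adjusted p = 0.0618, and 0.50 with adjusted p = 0.156 without the leukocyte-rich library). In bulk tumors MCM2 was at 16.1, 19.2 and 18.2 with sh-NC and 15.4, 17.8 and 16.7 with sh-B7-H3 (1). PCNA, the sliding clamp of DNA polymerases, was at 155, 177 and 188 in bulk sh-NC and 119, 129 and 140.3 in bulk sh-B7-H3 (1), and it fell without overlap (log2 fold change -0.41 ± 0.11, adjusted p = 0.0422). That call held in 4 of 13 alternatives and was lost without bulk sh-NC replicate 1, 2 or 3 or bulk sh-B7-H3 (1) replicate 1 (adjusted p 0.0526 to 0.174), and with FPKM as deposited (0.66). In sorted cells PCNA was at 136, 173 and 223 with sh-NC, 227, 168 and 178 with sh-B7-H3 (1) and 214, 150.2 and 157 with sh-B7-H3 (2), and all 3 groups overlapped. The other 5 S phase genes (CDC6, MCM3, MCM5, GMNN and TYMS) did not pass in any shRNA comparison. Their log2 fold changes were 0.16 to 0.40 for sh-B7-H3 (1) and 0.15 to 0.52 for sh-B7-H3 (2) in sorted cells and -0.39 to 0.03 in bulk tumors.

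Of the 22 mitosis genes, 1 fell and none rose in each of the 3 shRNA comparisons by limma. This was 4.55% of the mitosis genes each time, against 13.4%, 19.1% and 21.4% of all genes. The mitosis gene that fell was CCNB2 with either shRNA in sorted cells and CDC20 in bulk tumors. An unadjusted p under 0.05 was found for 2, 3 and 5 mitosis genes. In sorted cells the median log2 fold change over the 22 genes was -0.16 with sh-B7-H3 (1), with 18 of 22 below 0, and -0.06 with sh-B7-H3 (2), with 15 of 22 below 0. Without the leukocyte-rich library the latter was -0.17, with 16 of 22 below 0. The medians over all 3 libraries a group turned positive with FPKM as deposited, at 0.02 and 0.16, where the median of all genes was at 0.17 and 0.21. In bulk tumors the median was -0.06, with 13 of 22 below 0.

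CCNB2 (cyclin B2, a partner of CDK1 at entry into mitosis) was at 50.9, 59.2 and 56 in sorted sh-NC, 36.8, 36.6 and 34.6 in sorted sh-B7-H3 (1) and 43.2, 34.9 and 35.2 in sorted sh-B7-H3 (2). Every sorted shRNA library was below every sorted sh-NC library. CCNB2 fell with sh-B7-H3 (1) (log2 fold change -0.61 ± 0.12, adjusted p = 0.0135) and with sh-B7-H3 (2) (log2 fold change -0.54 ± 0.14, adjusted p = 0.0277), each measured against the same sh-NC libraries. It fell by 0.64 (adjusted p = 0.0327) without the leukocyte-rich library. Each call held in 7 of 13 alternatives. The first was lost without sorted sh-NC replicate 2 or any 1 of the sorted sh-B7-H3 (1) replicates (adjusted p 0.0659 to 0.0837). The second was lost without sorted sh-NC replicate 2 or 3 or sorted sh-B7-H3 (2) replicate 2 or 3 (0.0561 to 0.152). With FPKM as deposited the adjusted p were 0.345 and 0.395. In bulk tumors CCNB2 was at 27.8, 24.3 and 33.8 with sh-NC and 15.5, 19.8 and 27 with sh-B7-H3 (1), with overlap (log2 fold change -0.47 ± 0.21, adjusted p = 0.144).

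CDC20, which activates the anaphase-promoting complex, was at 15.2, 13.3 and 16.3 in bulk sh-NC and 8.45, 11.2 and 11.1 in bulk sh-B7-H3 (1), and it fell without overlap (log2 fold change -0.51 ± 0.14, adjusted p = 0.0396). The call held in 5 of 13 alternatives and was lost without bulk sh-NC replicate 1, 2 or 3 or bulk sh-B7-H3 (1) replicate 1 or 3 (adjusted p 0.0523 to 0.138), and with FPKM as deposited (0.56). In sorted cells CDC20 was at 16.5, 17.9 and 21.6 with sh-NC, 13.2, 12.3 and 15.9 with sh-B7-H3 (1) and 16.9, 11.5 and 12.7 with sh-B7-H3 (2), short of the threshold (log2 fold change -0.41 ± 0.15, adjusted p = 0.139 and log2 fold change -0.43 ± 0.17, adjusted p = 0.132). Without the leukocyte-rich library the second was -0.58 (adjusted p = 0.067).

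MKI67, the proliferation marker Ki-67, was at 21.9, 12.3 and 6.62 in sorted sh-NC, 7.98, 13.6 and 10.4 in sorted sh-B7-H3 (1) and 16.2, 15.3 and 13.9 in sorted sh-B7-H3 (2). The sh-NC libraries alone spanned the range of the other groups, and neither difference passed (log2 fold change -0.21 ± 0.37, adjusted p = 0.807 and log2 fold change 0.28 ± 0.35, adjusted p = 0.631). The second was 0.24 without the leukocyte-rich library (adjusted p = 0.765). In bulk tumors MKI67 was at 16.1, 15.6 and 12.1 with sh-NC and 20.3, 20.7 and 34.2 with sh-B7-H3 (1), with every sh-B7-H3 (1) library above every sh-NC library but short of the threshold (log2 fold change 0.71 ± 0.22, adjusted p = 0.0566). TOP2A, the topoisomerase that untangles chromosomes, was at 47.2, 39.1 and 36.9 in sorted sh-NC, 50.4, 48.8 and 51.4 with sh-B7-H3 (1) and 59.5, 47.1 and 46.1 with sh-B7-H3 (2). TOP2A was at 35.7, 32.9 and 38.2 in bulk sh-NC and 36.8, 43.6 and 54.4 in bulk sh-B7-H3 (1). CDK1, the kinase of mitosis, was at 14.7, 17.7 and 20.3 in sorted sh-NC, 20.5, 15.7 and 15.4 with sh-B7-H3 (1) and 22.2, 13.6 and 17.2 with sh-B7-H3 (2). CDK1 was at 14.3, 14.3 and 17.5 in bulk sh-NC and 9.24, 12.2 and 13.8 in bulk sh-B7-H3 (1). Neither TOP2A nor CDK1 passed in any of the 3 comparisons. The other 17 mitosis genes hold the kinases PLK1, AURKA, AURKB, TTK, BUB1 and BUB1B, the motors KIF11 and KIF20A and the regulators FOXM1 and MYBL2. They had log2 fold changes of -0.42 to 0.18 and -0.41 to 0.34 in sorted cells and -0.42 to 0.38 in bulk tumors.

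**Figure D4:**
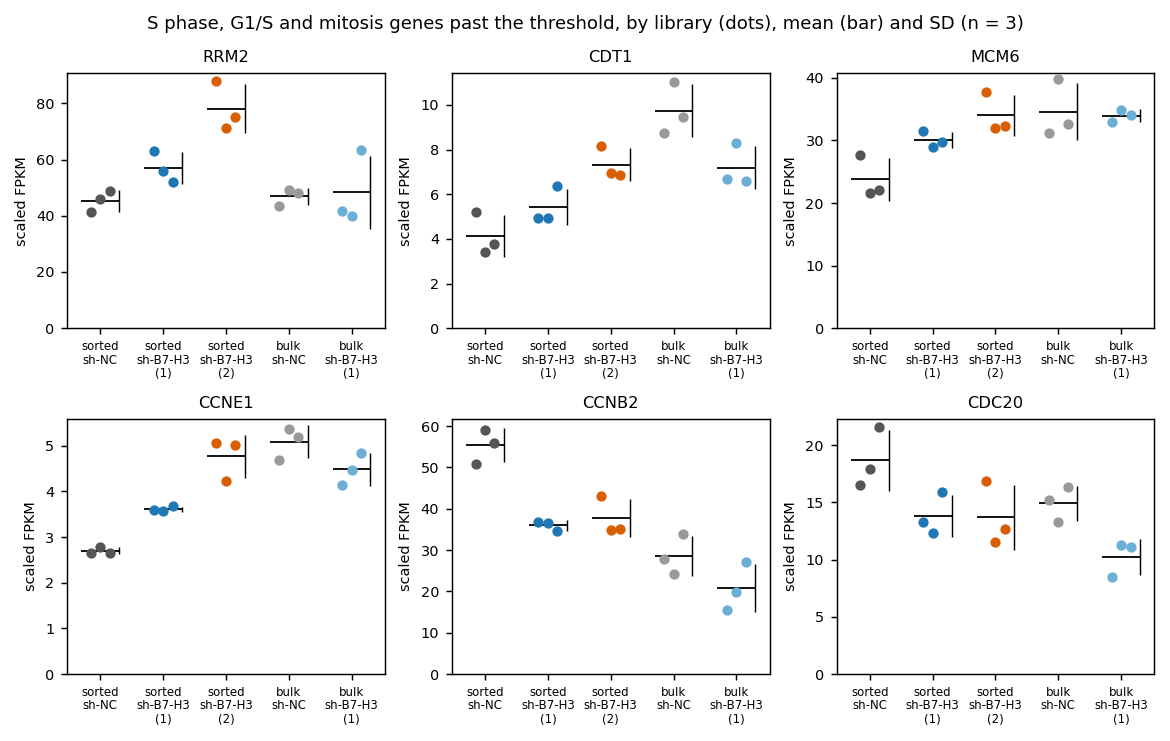
Scaled FPKM (y axis, linear, from 0) of 3 S phase genes (RRM2, CDT1, MCM6), the G1/S gene CCNE1 and 2 mitosis genes (CCNB2, CDC20) in each of the 15 libraries (dots), by group (x axis), with the group mean (horizontal bar) and SD (vertical bar, n = 3). In sorted cells RRM2 runs from 41.2 to 48.9 with sh-NC and from 71.1 to 88.1 with sh-B7-H3 (2), and CCNB2 from 50.9 to 59.2 and from 34.9 to 43.2.

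The 2 shRNAs were compared directly in sorted cells, where 2 of 46 members passed, CDKN2B (log2 fold change -2.40 ± 0.36, adjusted p = 0.0183) and CDKN2A (log2 fold change -2.04 ± 0.40, adjusted p = 0.0382), both lower with sh-B7-H3 (1), against 3.4% of all genes. Both genes reached the filter of this test only with the sh-B7-H3 (2) libraries, where they were high. With no filter on low values neither gene passed (adjusted p = 0.0764 for CDKN2B and 0.119 for CDKN2A). The replicate numbers were taken to pair these libraries on the values themselves, with correlations of deviations from the group means of 0.514, 0.431 and 0.443. The labels give a number alone and do not say what same-numbered libraries share. Since the block was chosen on the same values that it then tests, its adjusted p can be too small and give limited support. With the replicate number as a block, 6 members passed, against 16.6% of all genes. These were CDKN2B and CDKN2A (adjusted p = 0.0196 each), RRM2 (-0.45 ± 0.06, adjusted p = 0.02), CDK6 (-0.57 ± 0.06, adjusted p = 0.017) and CCND2 (-0.50 ± 0.10, adjusted p = 0.0394), lower with sh-B7-H3 (1), and CDKN1B (0.39 ± 0.05, adjusted p = 0.0203), which was higher. Without the block, both calls were lost when any 1 sorted sh-B7-H3 (1) library was left out, with adjusted p from 0.0538 to 0.118. The CDKN2A call was also lost without sorted sh-B7-H3 (2) replicate 2 (0.137) or 3 (0.117), and without the leukocyte-rich library it was -2.56 (adjusted p = 0.000337). CDKN2B could not be tested without any 1 of the sorted sh-B7-H3 (2) libraries. The other 6 members that passed against sh-NC with sh-B7-H3 (2), CCNB2 among them, did not pass in the unblocked comparison of the shRNAs. CD276 itself was lower with sh-B7-H3 (1) than with sh-B7-H3 (2) (log2 fold change -1.16 ± 0.20, adjusted p = 0.0277).

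The effect of sh-B7-H3 (1) in sorted cells was compared with its effect in bulk tumors by an interaction term. Of 46 members, CDKN2B passed (log2 fold change -1.09 ± 0.20, adjusted p = 0.0451), against 0.464% of all genes tested. It entered the test only through the bulk sh-B7-H3 (1) libraries, the group where it was high, and with no filter on low values its adjusted p was 0.0418. It rose in bulk tumors and was near 0 in both sorted groups, at up to 0.415 scaled FPKM. That call held in 2 of 15 alternatives. It was lost without any 1 of the sorted or bulk sh-NC libraries or the sorted sh-B7-H3 (1) libraries (adjusted p 0.0559 to 0.139), and CDKN2B could not be tested without a bulk sh-B7-H3 (1) library. All 10 S phase genes had an interaction above 0, with a median of 0.37, and none of them passed limma's threshold, while 2 of them (MCM5 and CDT1) had an unadjusted p under 0.05.

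Other genes of the same processes were read in 3 longer lists that hold no member. Of 41 further replication genes tested with sh-B7-H3 (1) in sorted cells, MCM7, a helicase subunit, and RFC5, a subunit of the clamp loader, rose (0.49 ± 0.12, adjusted p = 0.0288 and 0.52 ± 0.13, adjusted p = 0.0305), and none fell. With sh-B7-H3 (2) none of 42 passed limma's threshold, with 10 at an unadjusted p under 0.05 and a median of 0.26 (none of 41, median 0.20, without the leukocyte-rich library). In bulk tumors 3 of 43 fell and 1 rose. TK1, thymidine kinase (-0.60 ± 0.17, adjusted p = 0.0482), DUT, a dUTPase (-0.56 ± 0.10, adjusted p = 0.013), and RFC4 (-0.46 ± 0.13, adjusted p = 0.0468) fell, and BRCA2, a repair gene, rose (0.42 ± 0.11, adjusted p = 0.0421). Of 63 further mitosis genes, CDC25B, the phosphatase that activates CDK1, rose in all 3 comparisons (0.74 ± 0.13, adjusted p = 0.0071 and 0.89 ± 0.17, adjusted p = 0.00792 in sorted cells, 0.68 ± 0.09, adjusted p = 0.00526 in bulk). With sh-B7-H3 (2) NUSAP1 (-0.63 ± 0.17, adjusted p = 0.0342) and ANLN (-0.57 ± 0.16, adjusted p = 0.0478), which act on the spindle and in cytokinesis, fell (4 genes of the list fell without the leukocyte-rich library), and in bulk tumors PTTG1 (securin) fell (-0.60 ± 0.13, adjusted p = 0.0211). For sorted sh-B7-H3 (1), sorted sh-B7-H3 (2) and bulk tumors, 13.4%, 19.1% and 21.4% of all genes passed. The calls made up 4.88%, 0% and 9.3% of the replication genes tested and 1.59%, 4.76% and 3.17% of the mitosis genes. Leaving out single libraries was run for each of these calls. Those on CDC25B held without any 1 library, in each of the 3 comparisons, but the bulk call was lost with FPKM as deposited (adjusted p = 0.204). The calls on MCM7 and RFC5 were lost without sorted sh-NC replicate 2 or 3 or any 1 sorted sh-B7-H3 (1) library, and that on NUSAP1 without sorted sh-NC replicate 2 or 3 or sorted sh-B7-H3 (2) replicate 2 or 3. The bulk call on DUT was lost without bulk sh-NC replicate 3 or bulk sh-B7-H3 (1) replicate 1, and those on TK1, RFC4, BRCA2 and PTTG1 without any 1 bulk sh-NC library or bulk sh-B7-H3 (1) replicate 1, as were TK1 and BRCA2 without replicate 3. ANLN was lost without sorted sh-NC replicate 1 or 2 or sorted sh-B7-H3 (2) replicate 2 or 3.

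In the list of 22 further genes tested that restrain the cycle, GADD45A, a stress-induced gene, fell in all 3 comparisons (-0.82 ± 0.16, adjusted p = 0.0104 and -1.07 ± 0.15, adjusted p = 0.00205 in sorted cells, -0.72 ± 0.11, adjusted p = 0.00703 in bulk). CDKN2D (p19Ink4d, the remaining INK4 gene) fell with sh-B7-H3 (2) (-0.80 ± 0.19, adjusted p = 0.0223) and in bulk tumors (-1.05 ± 0.16, adjusted p = 0.00801). LIN9, of the MuvB core of the DREAM complex, rose in sorted cells with both shRNAs (0.74 ± 0.17, adjusted p = 0.0213 and 0.72 ± 0.17, adjusted p = 0.0226). With B-MYB that core also turns on mitosis genes, so LIN9 and LIN54 of this list do not only restrain the cycle. RBL1, a relative of the retinoblastoma gene, rose with sh-B7-H3 (1) (0.46 ± 0.12, adjusted p = 0.0475). RBL2 (-0.55 ± 0.12, adjusted p = 0.0146) and the stress gene SESN1 (-0.61 ± 0.17, adjusted p = 0.0444) fell with sh-B7-H3 (2), while LIN54, also of the MuvB core, rose in bulk tumors (0.54 ± 0.13, adjusted p = 0.0298). In the direct comparison of the 2 shRNAs CENPE, a kinetochore motor, was the 1 gene of these lists that passed (-0.59 ± 0.11, adjusted p = 0.0331). It made up 1.59% of the further mitosis genes, against 3.4% of all genes. In all, 3 of the 22 genes passed with sh-B7-H3 (1) in sorted cells, 5 with sh-B7-H3 (2), or 3 without the leukocyte-rich library, and 3 in bulk tumors, in both directions each time. With all libraries these were 13.6%, 22.7% and 13.6% of the genes tested, against 13.4%, 19.1% and 21.4% of all genes. The calls on GADD45A with sh-B7-H3 (2) and in bulk and on CDKN2D in bulk held without any 1 library, although bulk GADD45A missed the threshold with FPKM as deposited (adjusted p = 0.186). Each of the other calls on this list was lost without 1 or more libraries of its comparison.

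Sorted cells were then compared with bulk tumors of the same shRNA, a contrast of material and not of B7-H3. With sh-NC, 14 of 45 members passed, 5 higher and 9 lower in sorted cells, against 16.9% of all genes. With sh-B7-H3 (1), 16 of 46 passed, 6 higher and 10 lower, against 38.2% of all genes. With sh-NC, 5 of the 10 S phase genes were lower in sorted cells and none passed as higher, with a median of -0.56 and 9 of 10 below 0, while GMNN, PCNA, RRM2 and TYMS overlapped between the groups. The mitosis genes had a median of 0.22, with 5 of 22 higher and 1 lower. These medians kept their sign with FPKM as deposited (-0.42 and 0.35) and with quantile normalization (-0.47 and 0.25). With FPKM as deposited 1 member passed, CCNB2, in place of 14, against 5.76% of all genes. With sh-B7-H3 (1), FPKM as deposited gave 13 members higher and 4 lower in sorted cells, against 33.6% of all genes, with the median of all genes at 0.23. With sh-NC the number past the threshold fell to 2, 1 and 3 without bulk sh-NC replicate 1, 2 and 3 and to 5 without sorted sh-NC replicate 2, and was 20 without sorted sh-NC replicate 1. With sh-B7-H3 (1) it was 9 without sorted or bulk sh-B7-H3 (1) replicate 1 and 11 to 20 without any other library. The bulk libraries carried leukocyte marker sums of 471 to 874, against 32.5 to 43.5 in sorted sh-NC and 67.2 to 95.3 in sorted sh-B7-H3 (1), and their part in these differences was not tested.

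Among G1/S genes, CCND3 (cyclin D3) was at 13.6, 9.84 and 12.3 in sorted sh-NC and 26.5, 29.5 and 26.1 in bulk sh-NC. With sh-B7-H3 (1) it was at 13.3, 12.9 and 15.9 in sorted cells and 24.5, 31.8 and 20.2 in bulk tumors. It was lower in sorted cells without overlap in both (log2 fold change -1.14 ± 0.15, adjusted p = 0.00155 and log2 fold change -0.80 ± 0.17, adjusted p = 0.0114), and both calls held without any 1 library but missed the threshold with FPKM as deposited (adjusted p = 0.068 and 0.0579). E2F1 was also lower in both (log2 fold change -0.79 ± 0.13, adjusted p = 0.00772 and log2 fold change -0.44 ± 0.14, adjusted p = 0.0374). Its call with sh-B7-H3 (1) held in 3 of 13 alternatives and was lost without any 1 of the 6 libraries (adjusted p 0.0504 to 0.112), and that with sh-NC was lost without any 1 bulk sh-NC library and with FPKM as deposited. CCNE1 passed as lower with sh-NC, a call lost in the same 4 alternatives (log2 fold change -0.72 ± 0.11, adjusted p = 0.00503). CDK6 (log2 fold change -0.67 ± 0.11, adjusted p = 0.00511) and CCND2 (log2 fold change -0.54 ± 0.14, adjusted p = 0.0235) were lower in sorted cells with sh-B7-H3 (1). The CDK6 call held in 12 of 13 alternatives, missing with FPKM as deposited, and the CCND2 call in 6 of 13.

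The S phase genes lower in sorted sh-NC cells were CDT1 (log2 fold change -1.08 ± 0.17, adjusted p = 0.00438), CDC6, which loads the helicase with CDT1 (log2 fold change -0.69 ± 0.14, adjusted p = 0.0148), and the helicase subunits MCM5, MCM2 and MCM3 (log2 fold changes of -0.66, -0.64 and -0.59). Their calls held in 11 of 13 alternatives for CDT1, 6 of 12 for CDC6, 8 of 13 for MCM5 and 6 of 13 for MCM2 and MCM3. With sh-B7-H3 (1) none of these 5 passed (log2 fold changes from -0.35 to 0.06), and PCNA was higher in sorted cells (log2 fold change 0.55 ± 0.14, adjusted p = 0.0216). No further replication gene passed with sh-NC with FPKM as deposited, against 5.76% of all genes. With the main scaling, of 42 further replication genes tested with sh-NC, 12 were lower and 0 higher in sorted cells. This was 28.6%, against 16.9% of all genes. The lowest were UHRF1, which guides DNA methylation after replication (-1.03 ± 0.21, adjusted p = 0.0175), CHAF1A, a histone chaperone (-0.90 ± 0.19, adjusted p = 0.0171), and RPA2, of the single-strand binding protein (-0.84 ± 0.18, adjusted p = 0.0206). With sh-B7-H3 (1), FPKM as deposited gave 9 higher and 3 lower, against 33.6% of all genes. With the main scaling 30.2% of 43 passed, against 38.2% of all genes. Of these, 9 were lower, led by CHAF1A (-0.94 ± 0.15, adjusted p = 0.00409), E2F8, of the E2F family and not a replication enzyme (-0.92 ± 0.22, adjusted p = 0.016), and CLSPN (-0.85 ± 0.16, adjusted p = 0.00726). Of the 4 that were higher, RFC3 (0.60 ± 0.12, adjusted p = 0.00797), PRIM1 (0.51 ± 0.17, adjusted p = 0.0485) and RFC4 (0.47 ± 0.13, adjusted p = 0.0289) had the largest changes.

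Cyclin B genes were the mitosis genes higher in sorted cells with either shRNA. CCNB1 was at 27.9, 28.6 and 38.7 in sorted sh-NC and 19.6, 17.2 and 20.2 in bulk sh-NC. With sh-B7-H3 (1) it was at 29, 21.9 and 24.3 in sorted cells and 11.7, 13.8 and 17.3 in bulk tumors. It was higher in sorted cells without overlap in both (log2 fold change 0.70 ± 0.16, adjusted p = 0.023 and log2 fold change 0.78 ± 0.16, adjusted p = 0.0106), as was CCNB2 (log2 fold change 0.94 ± 0.15, adjusted p = 0.00587 and log2 fold change 0.80 ± 0.18, adjusted p = 0.0144). MAD2L1, of the spindle checkpoint (log2 fold change 0.82 ± 0.15, adjusted p = 0.0092), BUB1 (log2 fold change 0.53 ± 0.14, adjusted p = 0.041) and KIF20A (log2 fold change 0.51 ± 0.14, adjusted p = 0.0423) were higher with sh-NC, and CDC25C (log2 fold change 0.60 ± 0.12, adjusted p = 0.00885), CDK1 (log2 fold change 0.52 ± 0.17, adjusted p = 0.0456) and AURKA (log2 fold change 0.47 ± 0.12, adjusted p = 0.0203) with sh-B7-H3 (1). MYBL2 (B-MYB) was lower in sorted cells in both (log2 fold change -0.84 ± 0.17, adjusted p = 0.0142 and log2 fold change -0.77 ± 0.14, adjusted p = 0.00685). MKI67 (log2 fold change -1.15 ± 0.24, adjusted p = 0.0107), FOXM1 (log2 fold change -0.62 ± 0.20, adjusted p = 0.0418) and CENPF (log2 fold change -0.59 ± 0.18, adjusted p = 0.037) were lower in sorted sh-B7-H3 (1) cells, and with sh-NC these 3 genes did not pass. The sh-NC calls on CCNB1, MAD2L1, KIF20A and MYBL2 held in 8 of 13 alternatives and that on BUB1 in 6. Each was lost without any 1 bulk sh-NC library and with FPKM as deposited. Among the sh-B7-H3 (1) calls, FOXM1 held in 5 of 13, CENPF and CDK1 in 6 and AURKA in 8. Each was lost without 1 or more of the libraries. CCNB1, CDC25C, MYBL2 and MKI67 held there in all 13, and CCNB2 held in 11 with sh-NC and 12 with sh-B7-H3 (1).

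**Figure D5:**
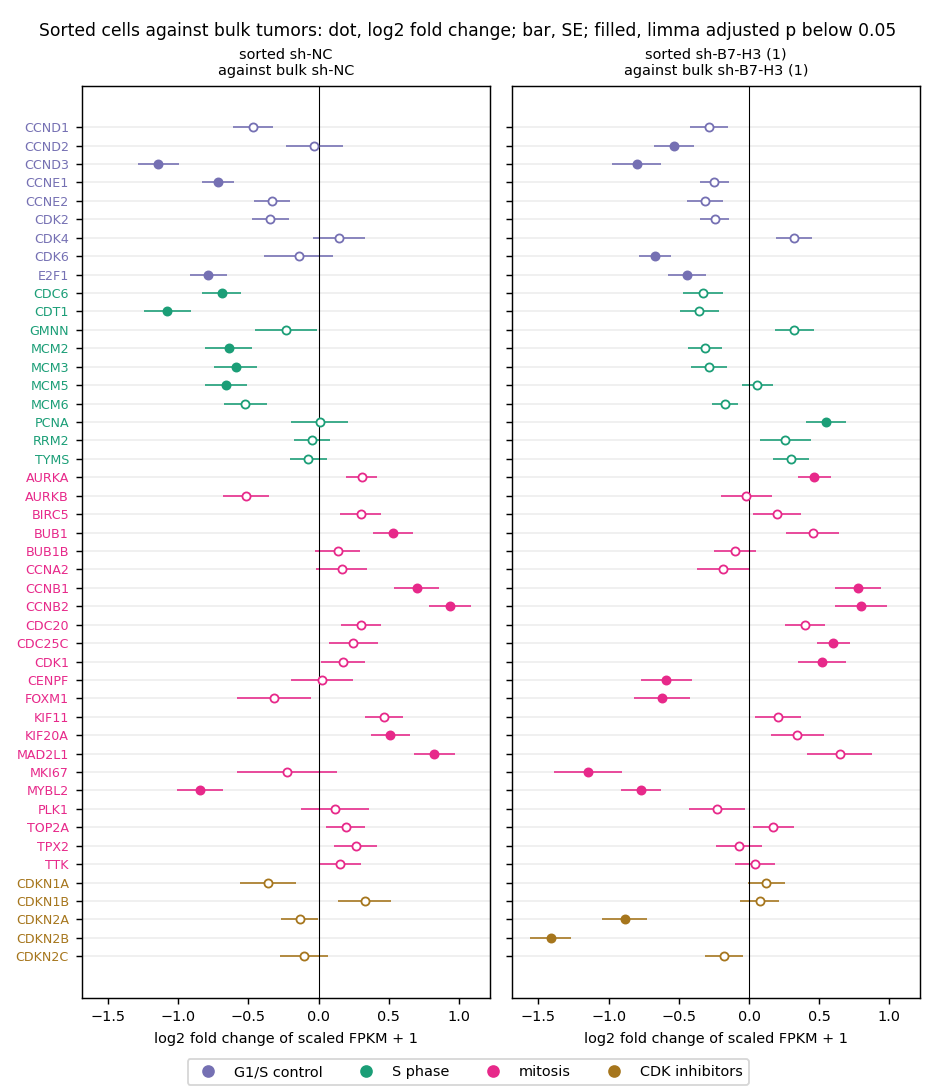
Log2 fold change of scaled FPKM + 1 (x axis, dots) with its SE (bars) for each member (y axis, coloured by role), sorted cells against bulk tumors with sh-NC (left) and with sh-B7-H3 (1) (right). Filled dots had a limma adjusted p below 0.05, 14 on the left and 16 on the right, and CDKN2B has no dot on the left because it was not tested there.

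Of the CDK inhibitors, CDKN2A (log2 fold change -0.89 ± 0.16, adjusted p = 0.0067) and CDKN2B (log2 fold change -1.41 ± 0.14, adjusted p = 0.000516) were lower in sorted than in bulk sh-B7-H3 (1) tumors, and no inhibitor passed with sh-NC. CDKN2A and CDKN2B reached the filter of the test with sh-B7-H3 (1) only with the bulk libraries, where they were higher. With no filter on low values both passed, CDKN2B at an adjusted p of 0.00189. In the further mitosis list no gene passed with sh-NC with FPKM as deposited, against 5.76% of all genes. With the main scaling 10 of 63 genes were higher and 4 lower in sorted sh-NC cells, 22.2% against 16.9% of all genes. Their extremes were ANLN (0.83 ± 0.15, adjusted p = 0.0101), DEPDC1A (0.78 ± 0.16, adjusted p = 0.018) and HMMR (0.74 ± 0.15, adjusted p = 0.0178) on the high side and CCNF (-0.65 ± 0.14, adjusted p = 0.0179), LMNB1 (-0.57 ± 0.15, adjusted p = 0.0405) and MAD2L2 (-0.55 ± 0.13, adjusted p = 0.0242) on the low side. With sh-B7-H3 (1) FPKM as deposited gave 15 higher and 0 lower, against 33.6% of all genes. The main scaling gave 7 higher and 6 lower, 20.6% against 38.2% of all genes. Their extremes were CENPA (0.92 ± 0.17, adjusted p = 0.00672), ANLN (0.70 ± 0.13, adjusted p = 0.00798) and ECT2 (0.59 ± 0.14, adjusted p = 0.0154) on the high side and CDCA2 (-0.74 ± 0.20, adjusted p = 0.025), CENPE (-0.70 ± 0.18, adjusted p = 0.0219) and INCENP (-0.70 ± 0.17, adjusted p = 0.0165) on the low side. Of the 22 further genes that restrain the cycle, 6 were higher and 1, E2F4 (-0.48 ± 0.12, adjusted p = 0.0324), lower in sorted sh-NC cells. With sh-B7-H3 (1) 8 were higher and 2, E2F4 (-0.36 ± 0.10, adjusted p = 0.025) and SESN1 (-0.39 ± 0.12, adjusted p = 0.0423), lower. The calls made up 31.8% and 45.5% of the genes tested, against 16.9% and 38.2% of all genes. With FPKM as deposited 2 and 11 were higher and 0 lower in these 2 comparisons. BTG2, an antiproliferative gene that is quickly induced by stress, had the largest difference in both (2.28 ± 0.19, adjusted p = 0.000111 and 2.39 ± 0.15, adjusted p = 5.79e-05). CCNG1 (0.90 ± 0.17, adjusted p = 0.0126) and TOB1 (0.78 ± 0.17, adjusted p = 0.0225) followed with sh-NC, and TOB1 (0.88 ± 0.14, adjusted p = 0.00368) and CCNG2 (0.84 ± 0.13, adjusted p = 0.00401) with sh-B7-H3 (1). Of the 33 and 36 genes of the 3 further lists that passed with sh-NC and with sh-B7-H3 (1), 1 (BTG2) and 15 passed without any 1 library. The sorted cells had been taken through dissociation and magnetic isolation, which cannot be told apart from the removal of host cells in this contrast.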

How the data were processed

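RNA sequencing had been done on 15 libraries, 3 for each of the 5 groups, grouped by the labels. The authors deposited FPKM per gene for all libraries, and mm10 is named in the submitters' processing notes. The aligner and counter are not given in the sources used here, and the library kit differs between the labels and the study's methods. A second, smaller deposited table on a log scale was not used. The table held 24917 entries, of which 26 had symbols turned into dates and were left out.

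Each library's FPKM was divided by a median-ratio factor (0.65 to 1.18, from 9872 genes), since one transcript, MIR6236, took 6.01% to 79.7% of the summed FPKM. Depth is known only relatively, from the steps between low values (0.468 to 1). Genes at or above 1 scaled FPKM in at least 3 of the libraries compared entered limma 3.58.1 (R 4.3.3) on log2(scaled FPKM + 1), with Benjamini-Hochberg adjustment over all genes tested and a threshold of 0.05. Tables, promoters and figures were made with Python 3.11.15, numpy 2.4.6, pandas 2.3.3 and matplotlib 3.10.9. P-values measure the spread between these libraries.

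The members and lists were chosen with earlier results of these data known. Values in every library are given for members past the threshold in a comparison of shRNAs, and for MKI67, TOP2A, CDK1, CCND1, E2F1, PCNA, MCM2 and the 5 CDK inhibitors, and from each further list up to 3 genes with the largest and 3 with the smallest change among those past it. CCND3 and CCNB1 by library, and MTAP, WINCR1 and GM12602, were added after their values were seen. Alternatives were FPKM as deposited, quantile normalization, a pseudocount of 0.1, no filter, a filter in every library, the replicate number as a block, a fit of all groups together and leaving out each library. Replicate numbers were taken to pair libraries where the deviations of same-numbered libraries from their group means correlated over 0.1 for all 3 numbers, which held for the comparison of the 2 shRNAs alone. Reads of CCNB1, CCNB2, CCND3, PCNA and TYMS can be shared with near-identical pseudogenes of the annotation, so their levels are uncertain to that extent.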

Additional observations from a re-analysis of the deposited data

Results flagged for a closer look

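CDKN2B passed the test of a difference between materials in the effect of sh-B7-H3 (1). The log2 fold change in sorted cells minus that in bulk tumors was -1.09 ± 0.20 (limma interaction term, adjusted p = 0.0451), with CDKN2B at up to 0.415 scaled FPKM in sorted sh-NC and sorted sh-B7-H3 (1) cells and at 1.5 to 2.34 in bulk tumors with sh-B7-H3 (1). CDKN2B entered the fit only through the bulk sh-B7-H3 (1) libraries, where it was high, so the p gives limited support. With no filter on low values the adjusted p was 0.0418, and over the 15 alternatives in which it was tested it was 0.0216 to 0.259, past the threshold in 2. Leukocyte markers were higher in bulk than in those sorted libraries, and their part in the difference was not tested.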

How the results depend on the processing

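Over the 48 member and comparison pairs past the threshold, 606 alternatives were run, all 606 kept the direction, 396 also kept the side of the threshold, and 9 pairs passed in every alternative run. Those 9 include CDKN2B with sh-B7-H3 (2), in bulk tumors and in sorted against bulk sh-B7-H3 (1), each with 9 alternatives. In those 3 pairs no library of the high group could be left out, because the filter then removed CDKN2B. For sh-B7-H3 (1) in sorted cells, 1 member passed, against 0 with FPKM as deposited, 2 with quantile normalization, 0 with the replicate block, 3 with all groups together and 0 to 4 without a single library. For sh-B7-H3 (2) in sorted cells, 8 passed, against 5 with a filter in every library, 5 with the replicate block and 1 to 14 without a single library. Between the 2 shRNAs, 2 passed, against 0 with no filter, 1 with a filter in every library, 6 with the replicate block and 0 to 4 without a single library. In bulk tumors 6 passed, against 2 with FPKM as deposited, 2 with no filter, 2 with the replicate block and 0 to 8 without a single library. For the interaction 1 passed, against 0 with quantile normalization, 0 with a pseudocount of 0.1, 0 with a filter in every library, 0 with the replicate block, 0 with all groups together and 0 to 0 without a single library. For sorted against bulk sh-NC, 14 passed, against 1 with FPKM as deposited, 13 with the replicate block and 1 to 20 without a single library, and with sh-B7-H3 (1) 16 passed, against 11 with the replicate block and 9 to 20. The cause was not tested. By the labels, same-numbered libraries share only a number, and those of the 2 shRNAs were taken as pairs on their values. CDKN2B could not be fitted where the filter removed it. Among all genes, calls went from 1497 to 915 with the replicate block in the first comparison and from 2150 to 1395 in the second. They went from 382 to 1864 with the block and 137 with no filter between the shRNAs, and from 2520 to 961 with FPKM as deposited and 1413 with the block in bulk tumors. For the interaction they went from 56 to 128 with FPKM as deposited, 25 with a pseudocount of 0.1, 13 with a filter in every library, 1 with the block and 36 with all groups together. For sorted against bulk sh-NC they went from 1924 to 652 with FPKM as deposited, 1279 with a filter in every library and 3082 with all groups together. Depth is known only relatively, and the level of CDKN2B in sorted sh-NC and sh-B7-H3 (1) cells was below the filter.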
